A study of Homo sapiens with 7 samples.

Results

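The genes described here are the poly(ADP-ribose) polymerase family members PARP9, PARP10, PARP12, PARP14 and ZC3HAV1, together with DTX3L, the ubiquitin ligase that partners PARP9. They were found by gene symbol in the platform's probe annotation, which named 18336 genes with a single symbol, and all 6 had at least 1 probe. The 6 genes had 10 probes in all, 2 each for PARP9, PARP12, PARP14 and ZC3HAV1 and 1 each for DTX3L and PARP10. All 6 genes were among the 12835 that passed the filter on dim genes.

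RNA came from Huh7, an established human hepatoma cell line that is widely used as a hepatocyte model. The cells were left untreated (0 h) or were treated for 6 h or 16 h with 10 IU/ml of IFN-α, 20 ng/ml of IFN-λ1 (also called IL29) or 20 ng/ml of IFN-λ4. Each of these 7 conditions was measured once, on a one-colour Cy5 array of amplified RNA, so there were no replicates, and the number of arrays limits the precision of every value below. The dose of IFN-α was in another unit than those of the IFN-λ proteins, and the untreated array was labelled 0 h, so none matched the treated arrays in time.

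IFN-α is a type I interferon and binds the receptor chains IFNAR1 and IFNAR2, whereas the type III interferons IFN-λ1 and IFN-λ4 bind IFNLR1 with IL10RB. Both receptors lead to ISGF3, a transcription factor complex that contains STAT2 and IRF9 and binds interferon-stimulated response elements (ISREs) in promoters. PARP enzymes use NAD to attach ADP-ribose to proteins or nucleic acids. PARP10, PARP12 and PARP14 attach single ADP-ribose units, PARP9 acts as a heterodimer with the E3 ubiquitin ligase DTX3L, and ZC3HAV1 (zinc-finger antiviral protein, ZAP) has lost the catalytic activity and binds CpG-rich viral RNA, which it targets for decay.

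The arrays were of similar brightness, with median deposited intensities of 494 to 633. Intensities given below are after quantile normalization and have no physical unit. They are compared between arrays for the same probe, never between probes. The 9 tested of 10 hepatocyte markers (albumin, apolipoproteins and others) summed to 1490000 to 1671730 on each array. Of 9 leukocyte markers 8 had a value, and 6 of these were tested. The 8 summed to 5788 on the untreated array and to 6957 and 11468 after IFN-α (6 h and 16 h). Their sums were 6642 and 7618 after IFN-λ1 and 9442 and 10161 after IFN-λ4. None of the leukocyte markers was at 0, and the pan-leukocyte gene PTPRC stayed between 40.4 and 47.6, in the dim range that was not tested. The 6 fibroblast and stellate markers, of which 4 were tested, summed to 4642 to 6356. The 6 endothelial markers, of which 4 were tested, summed to 3411 to 5102. In RNA from a whole culture, a smaller share of responding cells and less RNA per cell cannot be told apart.

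The promoter sequences of these genes are shown because 4 of the 6 genes share a motif close to the transcription start. The windows were taken from RefSeq promoters of the build GRCh38.p14, which run from 250 bases before to 50 bases after each start, and 5 of the 6 genes had an entry. Each window was searched on both strands for the ISRE core GAAANNGAAA and for the core of the gamma-activated site (GAS), TTCNNNGAA. The capitals mark the ISRE core in the first 4 sequences and the GAS core in the fifth, and each line is written on the gene's own strand.
PARP9, chr3:122564292-122564381, minus strand: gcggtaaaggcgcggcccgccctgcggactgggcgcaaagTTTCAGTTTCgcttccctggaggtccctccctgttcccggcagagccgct
DTX3L, chr3:122564292-122564381, plus strand: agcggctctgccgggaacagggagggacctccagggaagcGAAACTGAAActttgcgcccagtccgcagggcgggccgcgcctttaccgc
PARP14, chr3:122680770-122680859, plus strand: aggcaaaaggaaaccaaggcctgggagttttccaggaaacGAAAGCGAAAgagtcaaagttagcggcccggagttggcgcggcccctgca
PARP12, chr7:140062912-140063001, minus strand: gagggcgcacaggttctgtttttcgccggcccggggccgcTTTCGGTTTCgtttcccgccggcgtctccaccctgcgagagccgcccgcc
ZC3HAV1, chr7:139109776-139109864, minus strand: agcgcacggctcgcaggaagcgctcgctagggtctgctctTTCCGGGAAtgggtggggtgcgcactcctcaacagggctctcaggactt

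PARP9 and DTX3L lie head to head, and their ISRE core is the same 10 bases, chr3:122564332-122564341, read from opposite strands. With the start counted as 0, the match begins at position -41 for 1 of the listed PARP9 starts and at -6 for DTX3L, while the window of the other listed PARP9 start held no match. The match begins at -29 for PARP14 and at -10 for PARP12. PARP14 also held a GAS core, in lower case in its sequence, which begins at -40 and ends at -32. ZC3HAV1 held a GAS core that begins at -104, and the letters of the ISRE core were not in its window. For comparison, 3.57% of all 35116 promoter windows held the ISRE core and 7.66% held the GAS core. Among the 49 genes with a window that were at least 2-fold higher than untreated on all 6 treated arrays, which include 3 of these genes with a match (DTX3L, PARP12 and PARP14), 46.9% held the ISRE core, against 3.91% of the 10525 tested genes with a window. A match describes the letters only and is not evidence of binding.

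The partners PARP9 and DTX3L were both higher after every treatment. The brighter PARP9 probe read 1154 on the untreated array, 6274 and 2126 with IFN-α at 6 h and 16 h, 3418 and 2925 after IFN-λ1, and 3102 and 2860 with IFN-λ4. The untreated value was the lowest of the 7, and among the treated arrays IFN-α held both the highest value (6 h) and the lowest (16 h). PARP9 was 5.44-fold above untreated with IFN-α at 6 h, 1.84-fold at 16 h, and 2.48-fold to 2.96-fold with IFN-λ.

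DTX3L read 1191 on the untreated array, 8769 and 4695 with IFN-α at 6 h and 16 h, 5560 and 4913 after IFN-λ1, and 4478 and 4296 with IFN-λ4. The IFN-α array of 6 h stood above all others, and its 16 h value lay inside the span of the 4 IFN-λ arrays. DTX3L was 7.36-fold and 3.94-fold above untreated with IFN-α and 3.61-fold to 4.67-fold with IFN-λ. The log2 levels of the partners had a Pearson correlation of 0.933 over the 7 arrays, which share the same libraries and are given as a description.

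The dimmer PARP9 probe gave a different picture of the interferon types. It read 234 on the untreated array, 1540 and 770 with IFN-α, 1486 and 1618 after IFN-λ1, and 1136 and 1312 with IFN-λ4. On this probe IFN-λ1 at 16 h was highest, at 6.92-fold above untreated, and IFN-α at 6 h was next, at 6.59-fold. Every treated value was above the untreated one with both probes, and their log2 levels had a correlation of 0.866 over the 7 arrays.

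PARP14, a mono-ADP-ribosyltransferase with macrodomains that bind ADP-ribose, read 5067 on the untreated array, 54749 and 20536 with IFN-α at 6 h and 16 h, 30055 and 28016 after IFN-λ1, and 27632 and 22131 with IFN-λ4. IFN-α at 6 h was far above the rest, and IFN-α at 16 h was the lowest of the treated arrays. The folds over untreated were 10.8 and 4.05 with IFN-α and 4.37 to 5.93 with IFN-λ. The second PARP14 probe was dim, at 42.7 untreated, which is the 7.37th percentile of that array, and at 440 with IFN-α at 6 h. It lay above untreated on all 6 treated arrays, by 10.3-fold with IFN-α at 6 h and 1.52-fold at 16 h, but it fell below the intensity filter and was not tested.

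PARP10, a mono-ADP-ribosyltransferase, read 682 on the untreated array, 9363 and 6289 with IFN-α at 6 h and 16 h, 2913 and 3415 after IFN-λ1, and 3205 and 2893 with IFN-λ4. Both IFN-α arrays stood above all 4 IFN-λ arrays, which lay close together. The folds over untreated were 13.7 and 9.22 with IFN-α and 4.24 to 5.01 with IFN-λ. Its difference at 6 h of IFN-α ranked 38th from the highest of the 12835 genes, ahead of PARP14 (48th), DTX3L (59th), PARP9 (80th), PARP12 (119th) and ZC3HAV1 (317th).

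PARP12, a mono-ADP-ribosyltransferase with RNA-binding zinc fingers, read 3206 on the untreated array, 12460 and 8158 with IFN-α at 6 h and 16 h, 7606 and 10013 after IFN-λ1, and 9504 and 8055 with IFN-λ4. IFN-α at 6 h was highest and the other 5 treated arrays formed a narrow band. The folds over untreated ran from 2.37 (IFN-λ1 at 6 h) to 3.89 (IFN-α at 6 h). The dimmer PARP12 probe read 903 untreated and 1500 to 2302 on the treated arrays, was highest with IFN-λ1 at 16 h (2.55-fold) and lowest with IFN-λ4 at 6 h (1.66-fold).

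ZC3HAV1 did not follow the other 5 genes. Its brighter probe read 4814 on the untreated array, 11132 and 1439 with IFN-α at 6 h and 16 h, 6115 and 5734 after IFN-λ1, and 5372 and 4921 with IFN-λ4. IFN-α at 6 h was the highest of the 7 arrays and IFN-α at 16 h the lowest, while the IFN-λ arrays lay just above the untreated one. ZC3HAV1 was 2.31-fold higher than untreated with IFN-α at 6 h, 3.34-fold lower at 16 h, and 1.02-fold to 1.27-fold higher with IFN-λ. At 16 h of IFN-α it ranked 35th from the lowest of the 12835 genes. The dimmer ZC3HAV1 probe had the same order for IFN-α, at 507 untreated, 775 at 6 h and 314 at 16 h, and lay between 486 and 614 with IFN-λ. That is 1.53-fold higher and 1.61-fold lower than untreated, and the 2 probes had a correlation of 0.940 over the 7 arrays.

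**Figure D1:**
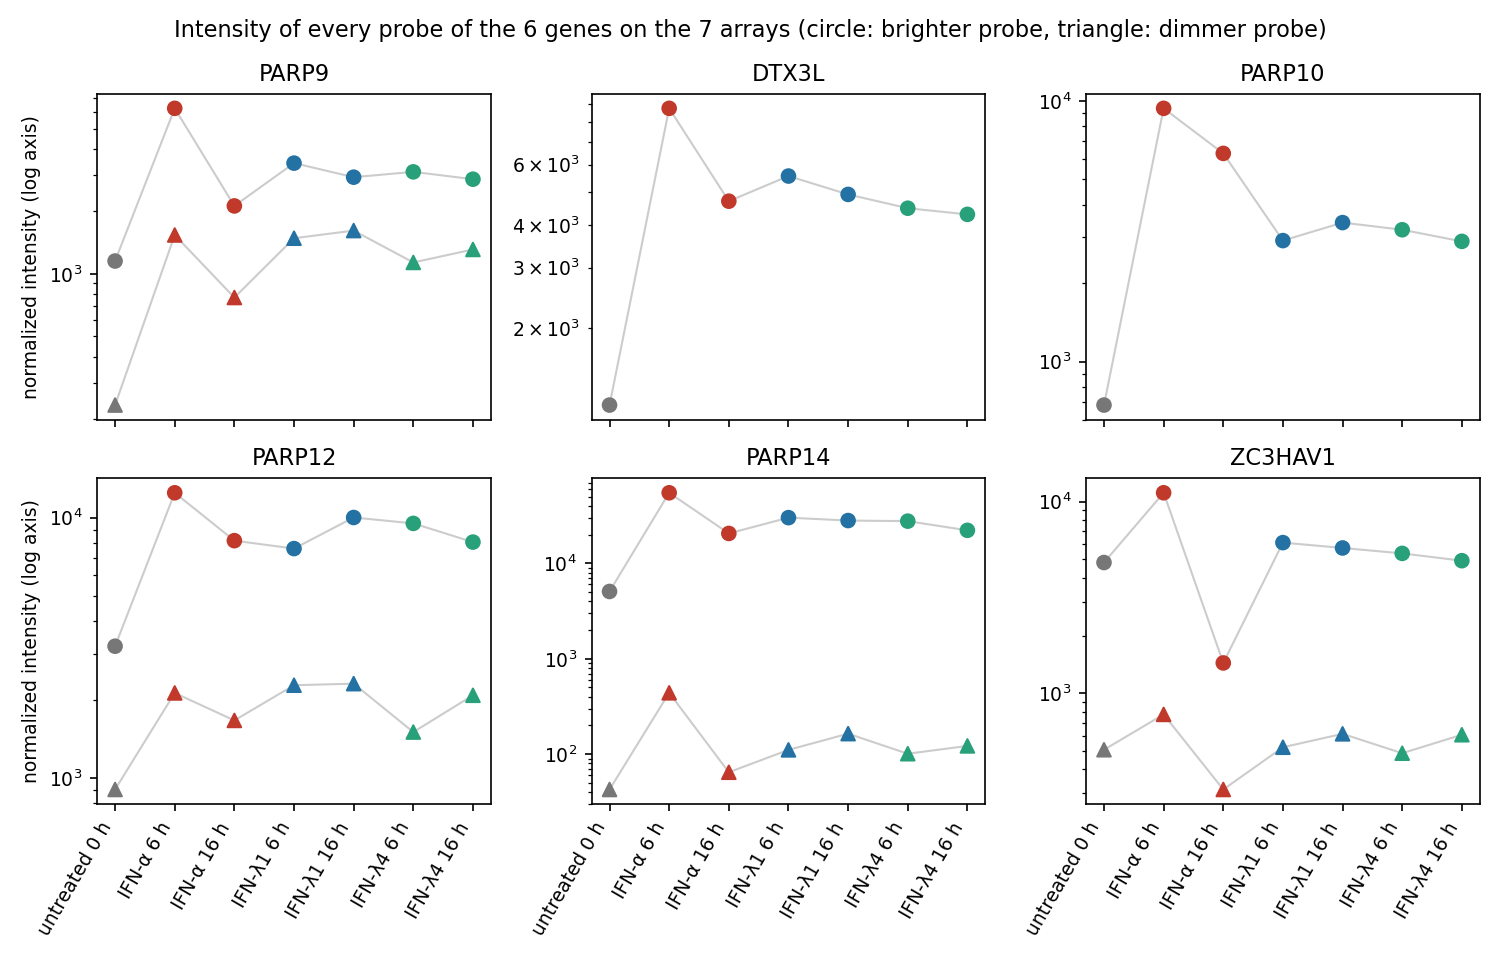
Quantile-normalized intensity (log axis) of every probe of the 6 genes on each of the 7 arrays, with circles for the brighter and triangles for the dimmer probe of a gene. The untreated array is lowest for all probes except those of ZC3HAV1, where IFN-α at 16 h is lowest (1439 and 314).

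Counted at 2-fold over untreated, 6 of the 6 genes were higher with IFN-α at 6 h, where 3.9% of all tested genes were. With IFN-α at 16 h, 4 of 6 were higher (5.75% of all genes) and ZC3HAV1 was lower (3.45% of all genes). With IFN-λ1, 5 of 6 were higher at 6 h (1.07% of all genes) and 5 of 6 at 16 h (0.958%). With IFN-λ4, 5 of 6 were higher at 6 h (2.04% of all genes) and 5 of 6 at 16 h (0.989%). ZC3HAV1 was the exception on each of the 4 IFN-λ arrays. DTX3L, PARP10, PARP12 and PARP14 were at least 2-fold higher on all 6 treated arrays, as were 58 genes (0.452%) of the 12835. These counts use the brightest probe of a gene. The dimmer PARP12 probe gave 1.84-fold with IFN-α at 16 h and 1.66-fold with IFN-λ4 at 6 h. That of PARP14 gave 1.52-fold with IFN-α at 16 h, and that of ZC3HAV1 1.53-fold with IFN-α at 6 h. The dimmer PARP9 probe passed 2-fold on all 6 treated arrays, with 3.29-fold (IFN-α at 16 h) as its lowest. All 6 comparisons share the single untreated array, so the counts are not independent of each other.

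The median log2 difference of the 6 genes from untreated was 2.66 and 1.66 with IFN-α at 6 h and 16 h, 1.83 and 1.84 after IFN-λ1, and 1.74 and 1.59 with IFN-λ4. The median over all tested genes lay between -0.08 and 0.03 on these arrays. The IFN-α array of 16 h had the widest spread over all genes, with an SD of 0.727 log2 units, against 0.646 with IFN-α at 6 h and 0.420 to 0.504 with IFN-λ.

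**Figure D2:**
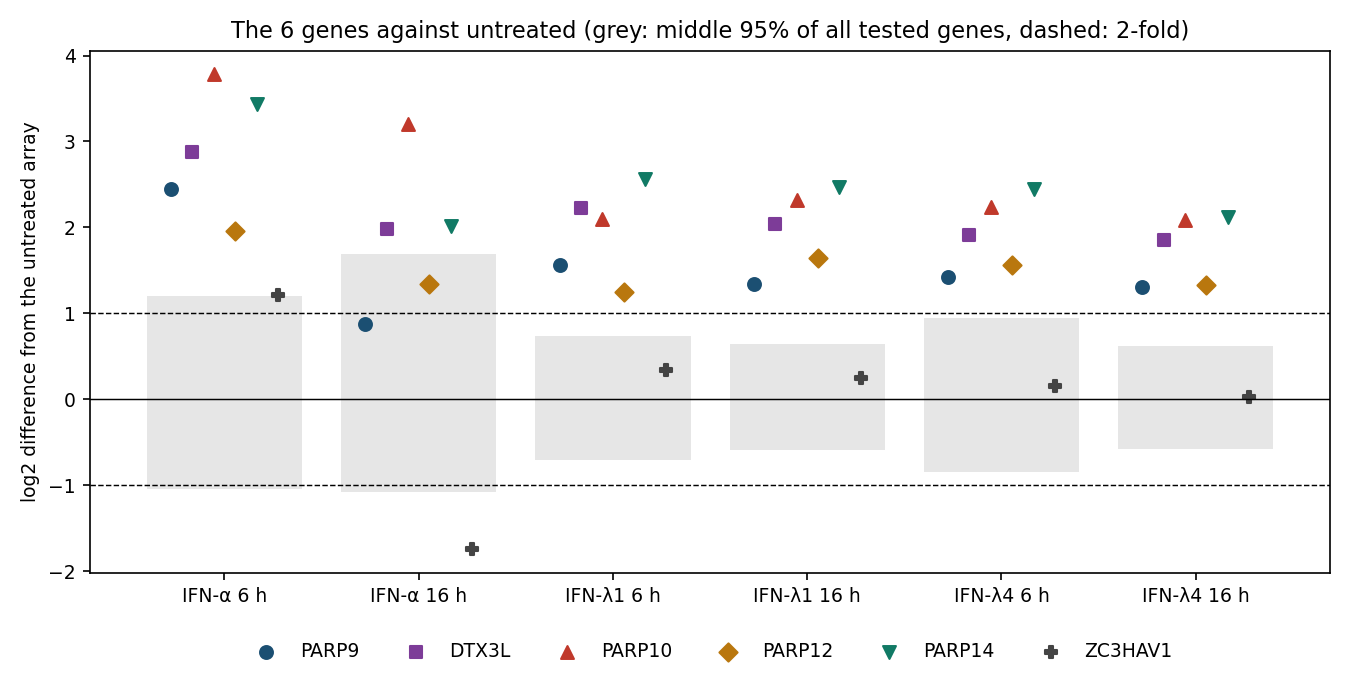
Log2 difference from the untreated array (vertical axis) of each of the 6 genes on the 6 treated arrays, with grey boxes for the middle 95% of the 12835 tested genes and dashed lines at 2-fold. With IFN-λ, PARP9, DTX3L, PARP10, PARP12 and PARP14 lie above the box and ZC3HAV1 inside it, and with IFN-α at 16 h ZC3HAV1 lies below the box.

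The 6 treated arrays together were compared with the untreated array in limma, where the spread among treated arrays holds the differences between interferons and times. limma with Benjamini-Hochberg adjustment called 0 of the 6 genes and 15 (0.117%) of all genes, and 5 of the 6 genes and 257 of all genes had an unadjusted p under 0.05. PARP14 was higher by 2.51 ± 0.42 log2 units (SE, adjusted p = 0.0773, limma) and DTX3L by 2.15 ± 0.36 (adjusted p = 0.0802, limma), each in 6 of 6 treated arrays. PARP10 was higher by 2.62 ± 0.58 (adjusted p = 0.364), PARP12 by 1.52 ± 0.28 (adjusted p = 0.158) and PARP9 by 1.49 ± 0.45 (adjusted p = 0.999), also in 6 of 6. ZC3HAV1 differed by 0.04 ± 0.77, with a 95% interval from -1.66 to 1.75. Over the 4 IFN-λ arrays alone against the untreated one, limma called 3 of the 6 genes, PARP14 (2.40 log2 units, adjusted p = 0.00281), PARP10 (2.18, adjusted p = 0.00442) and DTX3L (2.01, adjusted p = 0.00938), and 37 genes in all. Without the IFN-α array of 16 h alone, limma called PARP14 (2.61, adjusted p = 0.0433).

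IFN-α was then compared with IFN-λ at each time, which does not involve the untreated array. IFN-λ1 and IFN-λ4 stood as a pair of type III arrays, so the spread used is the difference between them, and the p-values hold no spread between cultures treated with IFN-α. At 6 h all 6 genes were higher with IFN-α, and 4 rose above IFN-λ in limma with Benjamini-Hochberg adjustment, where 2.59% of all genes did. PARP10 was higher by 1.62 ± 0.18 log2 units (SE, adjusted p = 0.0140), ZC3HAV1 by 0.96 ± 0.18 (adjusted p = 0.0432), PARP9 by 0.95 ± 0.16 (adjusted p = 0.0386) and PARP14 by 0.93 ± 0.17 (adjusted p = 0.0432). DTX3L differed by 0.81 ± 0.19 (adjusted p = 0.0702) and PARP12 by 0.55 ± 0.20 (adjusted p = 0.164). The calls of PARP9, PARP14 and ZC3HAV1 were each lost under 4 or 5 of 13 alternative settings, with adjusted p up to 0.125, 0.0782 and 0.0625, while PARP10 kept its call in all 13. PARP9 was not called without the IFN-λ1 or the IFN-λ4 array of 16 h (adjusted p = 0.0631 and 0.0619, limma), and DTX3L was called without the IFN-λ1 array of 6 h (0.97, adjusted p = 0.0403, limma). None of the dimmer probes tested was called for this comparison by limma over all probes: that of PARP9 gave 0.25 ± 0.25 (adjusted p = 0.623), that of ZC3HAV1 0.62 ± 0.21 (adjusted p = 0.159) and that of PARP12 0.20 ± 0.27 (adjusted p = 0.724).

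At 16 h limma called 2 of the 6 genes, in opposite directions. PARP10 remained higher with IFN-α than with IFN-λ, by 1.00 ± 0.18 log2 units (SE, adjusted p = 0.0180, limma), where 7.7% of all genes were called higher. ZC3HAV1 was lower with IFN-α (-1.88 ± 0.18 log2 units, adjusted p = 0.00251, limma), where 7.21% of all genes were called lower. The dimmer ZC3HAV1 probe gave -0.96 ± 0.21 (adjusted p = 0.0378, limma over all probes), and the dimmer PARP9 and PARP12 probes were not called (adjusted p = 0.0634 and 0.378). PARP9 differed by -0.44 ± 0.16 (adjusted p = 0.119), PARP14 by -0.28 ± 0.17 (adjusted p = 0.309), PARP12 by -0.14 ± 0.20 (adjusted p = 0.681) and DTX3L by 0.03 ± 0.19, with a 95% interval from -0.43 to 0.49. The PARP10 call was lost with median centring (0.73, adjusted p = 0.0651) and without the IFN-λ4 array of 16 h (0.88, adjusted p = 0.0774), and the ZC3HAV1 call held in all 12 alternatives, with adjusted p from 0.000612 to 0.00544.

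All 6 genes were lower at 16 h than at 6 h with IFN-α. Within IFN-α, ZC3HAV1 was 7.73-fold lower at 16 h than at 6 h, PARP9 2.95-fold, PARP14 2.67-fold, DTX3L 1.87-fold, PARP12 1.53-fold and PARP10 1.49-fold lower. Within IFN-λ1, PARP12 and PARP10 were 1.32-fold and 1.17-fold higher at 16 h, and the other 4 genes were 1.07-fold to 1.17-fold lower. Within IFN-λ4 all 6 genes were lower at 16 h, by 1.04-fold (DTX3L) to 1.25-fold (PARP14). These values use the brightest probe of a gene. Every dimmer probe was also lower at 16 h with IFN-α but was higher at 16 h with IFN-λ. With IFN-λ4 the dimmer probe read 1136 and 1312 (6 h and 16 h) for PARP9 and 1500 and 2077 for PARP12. It read 101 and 122 for PARP14 and 486 and 607 for ZC3HAV1. With IFN-λ1 it read 1486 and 1618 for PARP9, 111 and 164 for PARP14 and 522 and 614 for ZC3HAV1.

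The difference between these changes, IFN-α minus IFN-λ, passed the test for 3 of the 6 genes, all downward, where 3.51% of all genes did so. It was -2.84 ± 0.25 log2 units for ZC3HAV1 (SE, adjusted p = 0.0127, limma), -1.39 ± 0.23 for PARP9 (adjusted p = 0.0342, limma) and -1.20 ± 0.24 for PARP14 (adjusted p = 0.0465, limma). For DTX3L it was -0.78 ± 0.27 (adjusted p = 0.129), for PARP12 -0.69 ± 0.29 (adjusted p = 0.181) and for PARP10 -0.61 ± 0.25 (adjusted p = 0.175). ZC3HAV1 kept its call in all 12 alternatives, whereas PARP9 lost it in 4 and PARP14 in 5, with adjusted p up to 0.0828 and 0.0817. The dimmer probes gave -1.58 ± 0.30 for ZC3HAV1 (adjusted p = 0.0554, limma over all probes) and -1.17 ± 0.35 for PARP9 (adjusted p = 0.120, limma over all probes). Without the IFN-λ1 array of 16 h, PARP9 (adjusted p = 0.0788, limma) and PARP14 (-1.03, adjusted p = 0.0778, limma) were not called, and PARP9 was not called without the IFN-λ4 array of 16 h (adjusted p = 0.0828, limma). DTX3L was called without the IFN-λ1 array of 6 h (-0.94, adjusted p = 0.0475, limma). Each of these differences rests on the single IFN-α arrays of 6 h and of 16 h. IFN-α minus IFN-λ was 0.95 log2 units at 6 h and -0.44 at 16 h for PARP9. It was 0.93 and -0.28 for PARP14, and 0.96 and -1.88 for ZC3HAV1. On the IFN-α array of 16 h the summed leukocyte markers were highest and the summed endothelial markers lowest. The leukocyte markers did not move as 1 group there: against the untreated array CD14 read 6210 against 3239, MS4A1 2860 against 360 and CD68 1234 against 844, while ITGAM read 270 against 636 and PTPRC 41.4 against 44.4. The 4 lists held 9 hepatocyte, 6 leukocyte, 4 fibroblast and stellate and 4 endothelial markers that were tested. Of these markers, limma called 4 between IFN-α and IFN-λ at 16 h. Over all 12835 genes, 7.7% were called higher and 7.21% lower there, so the count of markers is near the share of all genes. MS4A1 was higher (2.54 ± 0.38 log2 units, adjusted p = 0.0103), and APOB (-0.53 ± 0.13, adjusted p = 0.0471), PDGFRB (-0.90 ± 0.19, adjusted p = 0.0309) and PECAM1 (-0.88 ± 0.20, adjusted p = 0.0353) were lower. MS4A1 was also called for the change between times (2.54 ± 0.53, adjusted p = 0.0483, limma). The part of these markers in the differences was not tested.

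**Figure D3:**
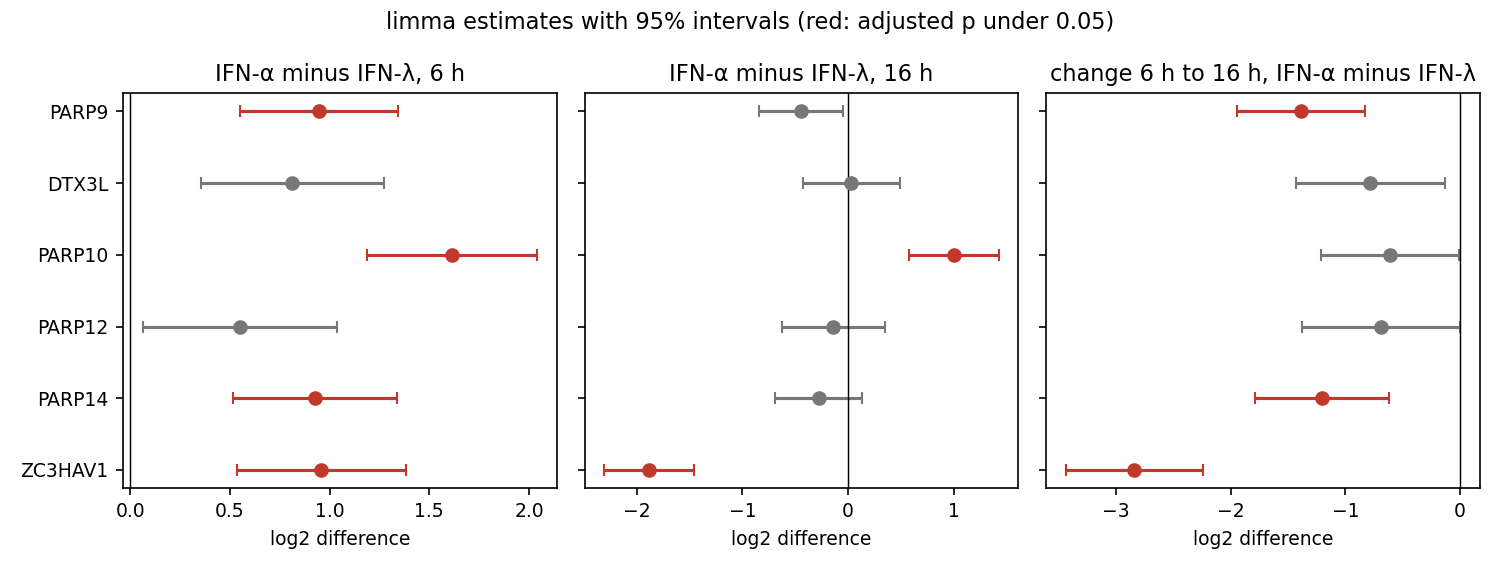
limma estimates with 95% intervals (horizontal axes, log2 differences) for the 6 genes, for IFN-α minus IFN-λ at 6 h, the same at 16 h, and the change from 6 h to 16 h in IFN-α minus that in IFN-λ, with red for an adjusted p under 0.05. All 6 genes lie right of 0 in the first panel, and in the second PARP10 (1.00) and ZC3HAV1 (-1.88) are on opposite sides.

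Averaged over the 3 interferons, 16 h against 6 h gave no call for the 6 genes, and limma with Benjamini-Hochberg adjustment called 0 (0%) of all genes, with 1941 genes and 0 of the 6 at an unadjusted p under 0.05. The estimates ran from -1.06 ± 0.54 log2 units for ZC3HAV1 (SE, adjusted p = 0.414) to -0.15 ± 0.22 for PARP12 (adjusted p = 0.779). Over the 4 IFN-λ arrays alone limma called 2668 genes between the times, and 0 of the 6 were among them.

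IFN-λ4 and IFN-λ1 were given at the same mass dose. limma with Benjamini-Hochberg adjustment called 0 of the 6 genes and 0 (0%) of all genes between them, and 304 genes and 0 of the 6 had an unadjusted p under 0.05. The differences, IFN-λ4 minus IFN-λ1, were -0.25 log2 units for DTX3L (95% interval -0.87 to 0.37), -0.23 for PARP14 (-0.99 to 0.53), -0.20 for ZC3HAV1 (-1.79 to 1.39), -0.09 for PARP9 (-0.97 to 0.80), -0.05 for PARP10 (-0.64 to 0.54) and 0.00 for PARP12 (-0.64 to 0.65). These intervals do not exclude differences of 1.5-fold in either direction for PARP9, PARP12 and ZC3HAV1. Over the 4 IFN-λ arrays the log2 level of a gene spanned 0.24 (PARP10) to 0.44 (PARP14).

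Other members of the PARP family were not at the 2-fold level on any treated array. Of 12 listed, 11 were tested, and their log2 differences from untreated ran from -0.76 to 0.83. They include PARP1 and PARP2, which act in DNA repair, and the tankyrases TNKS and TNKS2, and 0 of the 11 were called in any limma comparison. On a given treated array, 0.958% to 5.75% of all tested genes were at least 2-fold higher than untreated. Each limma comparison called 0 to 1914 of the 12835 genes. A count of 0 among 11 genes is near these shares. TIPARP, a mono-ADP-ribosyltransferase induced by the aryl hydrocarbon receptor, was higher than untreated on all 6 treated arrays, by 0.39 to 0.77 log2 units. PARP15, which lies between DTX3L and PARP14 on the chromosome, was too dim to be tested.

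**Figure D4:**
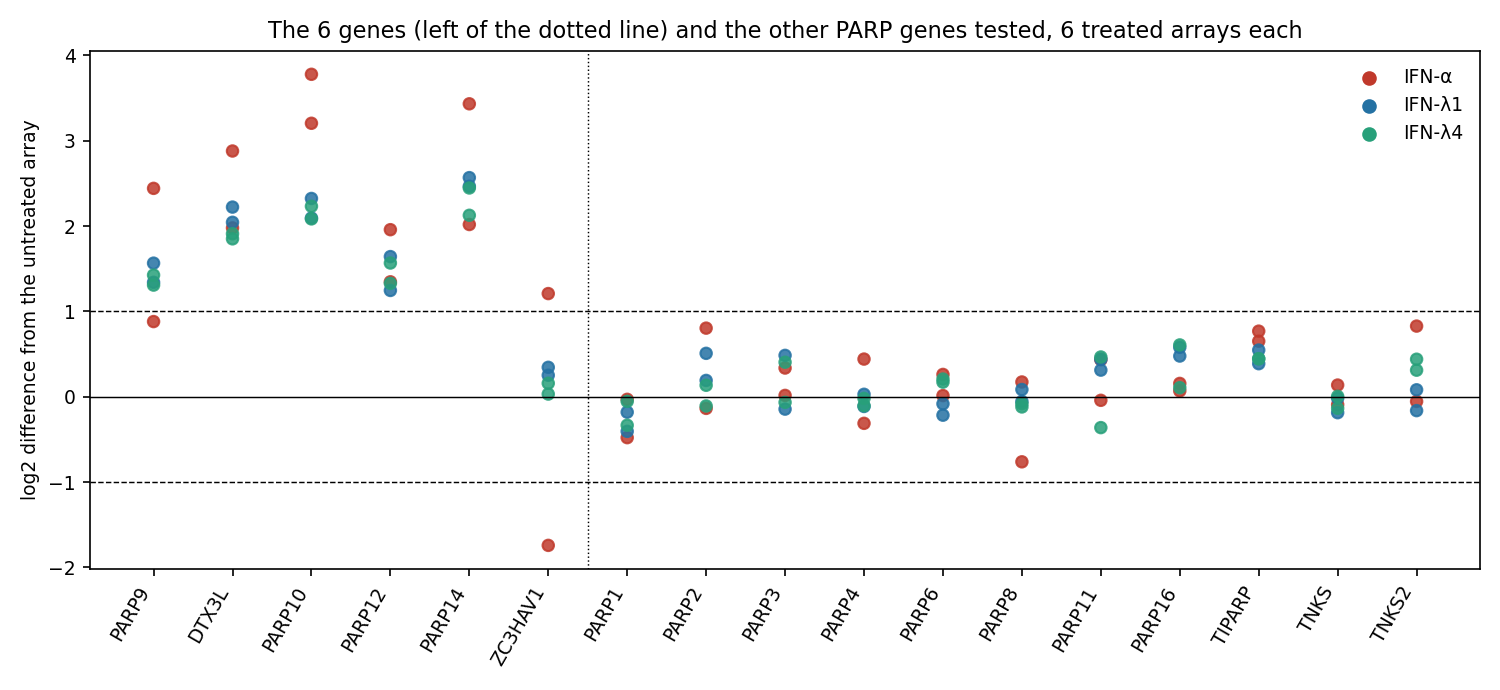
Log2 difference from the untreated array (vertical axis) on the 6 treated arrays for the 6 genes and for the 11 other PARP genes tested, coloured by interferon, with dashed lines at 2-fold. All points of the 11 other genes lie between the dashed lines, whereas 4 of the 6 genes have all points above the upper line.

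The position of the genes was compared with that of their neighbours, a step chosen after the values were seen. PARP9, DTX3L and PARP14 lie together on chromosome 3, and the 3 nearest genes on either side (FAM162A, WDR5B, KPNA1, HSPBAP1, SLC49A4 and SEMA5B) and PARP15 were not 2-fold above or below untreated on any array. KPNA1, next to PARP9, lay between 0.675-fold and 1.15-fold of untreated, and HSPBAP1, next to PARP14, between 1.02-fold and 1.30-fold. On chromosome 7, ZC3HAV1L, the paralog next to ZC3HAV1, lay between 1.00-fold and 1.45-fold, with 1.00-fold at 16 h of IFN-α, where ZC3HAV1 was lowest. None of the measured neighbours of ZC3HAV1 or PARP12 reached 2-fold on any array. On a given treated array, 0.958% to 5.75% of all tested genes were at least 2-fold higher than untreated. Finding none among so few neighbours is near that share.

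Of 13 listed cofactors of ZAP, all were tested, and TRIM25 and RIGI were the ones at least 2-fold higher on 3 or more arrays. Between 0.958% and 5.75% of all tested genes were at least 2-fold higher on a given treated array. TRIM25, the E3 ligase that ZAP needs for its antiviral activity, read 2516 on the untreated array, 12801 and 3632 with IFN-α at 6 h and 16 h, 7066 and 6243 after IFN-λ1, and 7962 and 6515 with IFN-λ4. It was 5.09-fold above untreated with IFN-α at 6 h and 1.44-fold at 16 h, the lowest of the treated arrays. Against IFN-λ it rose with IFN-α by 0.77 ± 0.15 log2 units at 6 h (SE, adjusted p = 0.0495, limma) and was lower at 16 h (-0.81 ± 0.15, adjusted p = 0.0213, limma). For TRIM25 the change from 6 h to 16 h, IFN-α minus IFN-λ, was -1.58 ± 0.22 log2 units. RIGI, the cytosolic RNA sensor, was 34.0-fold above untreated with IFN-α at 6 h, 3.29-fold at 16 h and 4.46-fold to 7.80-fold with IFN-λ. Its change from 6 h to 16 h differed between IFN-α and IFN-λ by -2.87 ± 0.32 (adjusted p = 0.0209, limma). The list's median log2 difference lay between -0.20 and 0.15 on the treated arrays, and EXOSC10, an exosome subunit and the one gene of the list at least 2-fold lower on an array, was 2.01-fold below untreated with IFN-α at 6 h and was not called by limma.

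Of 10 listed readers and erasers of ADP-ribose, all tested, ADPRS and OARD1 were called. ADPRS, a hydrolase that removes ADP-ribose from serine, was 2.33-fold above untreated with IFN-α at 6 h, and the other 5 treated arrays gave 0.935-fold to 1.14-fold. It was higher with IFN-α than with IFN-λ at 6 h by 1.06 ± 0.15 log2 units (SE, adjusted p = 0.0256, limma). OARD1, a macrodomain hydrolase, was higher with IFN-α at 16 h by 0.71 ± 0.17 (adjusted p = 0.0385, limma). The change from 6 h to 16 h, IFN-α minus IFN-λ, was -1.27 ± 0.22 log2 units for ADPRS and 0.57 ± 0.23 for OARD1. The list's median lay between -0.05 and 0.19. Of 10 listed genes of NAD supply, 9 were tested, none was 2-fold from untreated on any array, and NMRK1, a nicotinamide riboside kinase, was lower with IFN-α than with IFN-λ at 16 h (-0.96 ± 0.20, adjusted p = 0.0281, limma). The list's median lay between -0.25 and -0.01. Of all 12835 tested genes, limma called 2.59% higher with IFN-α than with IFN-λ at 6 h. At 16 h it called 7.7% higher and 7.21% lower, so the single calls of OARD1 and NMRK1 there are near those shares.

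Of 9 listed genes between the interferon receptors and ISGF3, 8 had a value and 7 were tested, with a median between 0.03 and 0.36. IRF9 was 4.08-fold to 8.17-fold above untreated on the 6 treated arrays, and higher by 2.43 ± 0.31 log2 units (SE) over them together. STAT2 was 6.23-fold above untreated with IFN-α at 6 h, and the other 5 arrays gave 1.91-fold to 2.17-fold. It rose above IFN-λ with IFN-α at 6 h by 1.56 ± 0.15 log2 units (SE, adjusted p = 0.00931, limma), where 2.59% of all genes did. TYK2, a receptor-associated kinase, was 3.68-fold below untreated with IFN-α at 6 h and was lower there than with IFN-λ (-1.05 ± 0.19, adjusted p = 0.0409, limma). With IFN-λ1 and IFN-λ4 at 6 h TYK2 was 1.69-fold and 1.86-fold below untreated. At 16 h it was 1.44-fold below with IFN-α, and 0.985-fold and 1.02-fold of untreated with IFN-λ1 and IFN-λ4. The change from 6 h to 16 h, IFN-α minus IFN-λ, was -1.64 ± 0.21 log2 units for STAT2, -0.26 ± 0.22 for IRF9 and 0.52 ± 0.27 for TYK2.

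Of 9 listed Deltex relatives and ubiquitin enzymes related to DTX3L, 5 were tested, with a median between -0.13 and 0.50. UBE2L6, an E2 enzyme for ISG15 and ubiquitin, was highest with IFN-α at 16 h, at 15.0-fold above untreated against 7.28-fold at 6 h, an order opposite to that of all 6 genes described above. Against IFN-λ it rose with IFN-α by 1.73 ± 0.18 log2 units at 6 h (SE, adjusted p = 0.0129, limma) and by 1.91 ± 0.18 at 16 h (adjusted p = 0.00260, limma). DTX4 rose with IFN-α against IFN-λ by 0.86 ± 0.13 at 6 h (adjusted p = 0.0264, limma) and 0.81 ± 0.13 at 16 h (adjusted p = 0.0129, limma). DTX3 was higher with IFN-α at 16 h (0.75 ± 0.13, adjusted p = 0.0177, limma) and DTX2 lower (-0.66 ± 0.16, adjusted p = 0.0413, limma). Of all tested genes, 2.59% were called higher with IFN-α than with IFN-λ at 6 h, and 7.7% higher and 7.21% lower at 16 h. None of DTX2, DTX3 and RNF114 was 2-fold from untreated on any array. The change from 6 h to 16 h, IFN-α minus IFN-λ, was -1.29 ± 0.23 log2 units for DTX2 and 0.95 ± 0.19 for DTX3. It was -0.05 ± 0.18 for DTX4 and 0.17 ± 0.26 for UBE2L6.

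The genes whose log2 levels followed each of the 6 most closely over the 7 arrays were found by Pearson correlation among 3252 tested genes that spanned at least 1 log2 unit. With 7 arrays such values are a description. DTX3L was closest to SP110 (0.996), PARP14 (0.989) and EPSTI1 (0.984), and PARP14 to SP110 (0.994), DTX3L (0.989) and SP100 (0.980). PARP9 was closest to RIGI (0.992), ADM (0.987) and SAMD9 (0.987), and PARP12 to IFIH1 (0.975), PARP14 (0.967) and XAF1 (0.965). PARP10 was closest to LGALS8 (0.973), HEG1 (0.972) and NMI (0.968).

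ZC3HAV1 had other neighbours in this ranking, with SLC7A11 (0.985), a cystine transporter, TP53BP1 (0.981) and P2RY6 (0.979) closest. SLC7A11 was 2.36-fold above untreated with IFN-α at 6 h and 0.223-fold at 16 h, and lay between 1.19-fold and 1.40-fold with IFN-λ. P2RY6, a nucleotide receptor, was 2.21-fold above untreated at 6 h of IFN-α and 0.318-fold at 16 h. The correlation of ZC3HAV1 with the other 5 genes ran from 0.023 (PARP10) to 0.572 (PARP9), whereas the correlations among those 5 ran from 0.810 to 0.989.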

How the data were processed

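Total RNA from Huh7 cells was isolated with Trizol, amplified and labelled with Cy5, per the labels' protocols. The deposited table held an intensity for 31741 probes on 7 arrays. The authors' scaling was not given in the sources used here, nor was the scanner. Between 39 and 61 values per array were at or below 0.

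Intensities were set to at least 1, turned to log2 and quantile normalized. Of the probes 24740 had 1 gene symbol, 977 several and 6024 none. A gene was represented by its brightest probe on average, which gave 18336 genes, and the 12835 above the 30th percentile of mean level were tested. A difference of 2-fold between single arrays was called. The package limma 3.58.1 (R 4.3.3) was run with a variance trend and Benjamini-Hochberg adjustment over all tested genes at 0.05. The fits compared treated with untreated arrays (5 residual degrees of freedom), times with interferon as a block, IFN-λ4 with IFN-λ1 with time as a block, and interferon type by time (2 each). The p-values measure only the spread between these arrays. The steps were tested on simulated data. Python 3.11.15, numpy 2.4.6, pandas 2.3.3 and matplotlib 3.10.9 were used.

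Promoter windows were selected by gene symbol from RefSeq promoters, which held no entry for PARP10. The 6 genes, the lists and the tests were chosen with earlier results of these data known. Of other lists, genes at least 2-fold higher on 3 or more arrays or called by limma were named, besides members named as background or among chromosomal neighbours, and for each of the 6 genes the 3 with the highest correlation.

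Alternatives were median centring, the deposited scaling, other filters, a floor at the 30th percentile, averaging the probes of a gene, every probe as a feature, thresholds of 1.5-fold and 3-fold, a fit without variance trend or without block, and omitting each interferon or the IFN-α array of 16 h. Leaving out each IFN-λ array in turn was added after seeing the data.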

Additional observations from a re-analysis of the deposited data

Results flagged for a closer look

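The change from 6 h to 16 h differed between IFN-α and the IFN-λ pair for 3 of the 6 genes by the interaction term of limma with Benjamini-Hochberg adjustment. The difference, IFN-α minus IFN-λ, was -2.84 log2 units for ZC3HAV1, -1.39 for PARP9 and -1.20 for PARP14. Of all tested genes, 3.51% were called downward in this test. ZC3HAV1 kept its call in all 12 alternatives, PARP9 in 8 and PARP14 in 7. The dimmer probes of PARP9 and ZC3HAV1 were not called (adjusted p = 0.120 and 0.0554, limma over all probes). IFN-α had 1 array per time, so these differences carry no spread between IFN-α cultures.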

How the results depend on the processing

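Each group had 1 array, so differences from untreated had no replicate check, and the 3 limma comparisons of interferon type rest on the spread between IFN-λ1 and IFN-λ4. No paired analysis was possible because all 7 arrays carry the replicate number 1, so that number pairs no arrays. The blocks in the fits of time and of IFN-λ4 against IFN-λ1 were interferon and time, and without them limma likewise called 0 of the 6 genes. With a 3-fold threshold, 3 genes in place of 5 were higher with IFN-λ1 at 6 h and with IFN-λ4 at 6 h and 16 h. Treated against untreated called 3 of the 6 genes without IFN-α and 1 without the IFN-α array of 16 h, in place of 0, and 37 and 20 genes in all, in place of 15. IFN-α against IFN-λ at 6 h called 2 genes in place of 4 with the deposited scaling, with no filter, with the mean over probes and with every probe as a feature, and 1 with no variance trend. Leaving out 1 IFN-λ array gave 3 to 5 genes at 6 h, 1 to 2 at 16 h and 1 to 4 for the change between times. At 16 h median centring left 1 call in place of 2, and no variance trend left 1 in place of 3 for the change between times. Over all genes those 3 comparisons called 250 to 1394, 788 to 3511 and 207 to 2073, in place of 484, 1914 and 717. The direction turned for DTX3L at 16 h with median centring (-0.21), with the deposited scaling (-0.0135) and without the IFN-λ4 array of 16 h (-0.0657, against 0.128 without that of IFN-λ1), in place of 0.03. It also turned for PARP12 at 16 h without the IFN-λ1 array of that time (0.0183, against -0.296 without that of IFN-λ4, in place of -0.14) and for ZC3HAV1 treated against untreated without IFN-λ1 (-0.0855, in place of 0.04). 16 h against 6 h called 2668 genes without IFN-α, 2680 without the IFN-α array of 16 h and 32 without IFN-λ4, in place of 0, and 0 of the 6 genes each time. For single genes 476 recomputed results kept their direction and side of the threshold, 25 calls were lost and 6 gained. The filters, the raised floor and every probe as a feature left the differences from untreated unchanged by construction, so part of the 476 was fixed in advance. Another 34 values without a test moved in size, and not all of these crossed 2-fold. DTX3L with IFN-α at 16 h, for example, was 1.81 log2 units with median centring, in place of 1.98. Of the counts, 112 stayed within 1.5 times and 14 moved. The comparison at 16 h and the change between times could not be fitted without the IFN-α array of 16 h. The cause of these shifts was not tested.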
